A study of Bos taurus with 54 samples.

Results

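The set described here holds 9 genes of leukocyte adhesion, taken by symbol from the 32637 genes counted in calf blood: SELPLG, ITGAM, ITGAL, ITGB2, ITGA4, ITGB1, ITGB7, PECAM1 and ICAM1. Blood came from 15 Holstein male calves, housed in climate controlled rooms. It was drawn in the morning before heat exposure (thermoneutral control) and in the evening, directly after 12 h of heat exposure (heat stress). Animal 20 had a sample of 1 time only, so there were 29 RNA samples. Red cells were lysed, and RNA of the remaining cells went into 3′ mRNA-Seq libraries with either of 2 kits, SMART-Seq v4 3′ DE from Takara or QuantSeq 3′ from Lexogen, which read the end of a transcript next to its poly-A tail. Each kit gave 27 libraries, of which 13 control and 13 heat stress libraries were compared, and 12 calves per kit had both times. Animal 20 (1 library per kit) was left out because its label and the study's sample table disagree on its time. That table numbers calves without giving their animal numbers. If read in ascending animal number, it also reverses the time of the missing library for animals 7, 15, 23 and 29. The study's methods give more samples before heat than after it, and the labels give the reverse. The groups and the sign of every difference below follow the labels, and this disagreement was not resolved. Ages were not given in the sources used here. No calf was sampled in the evening without heat, so heat and time of day cannot be told apart. In whole blood, fewer cells of a type and less RNA per cell cannot be told apart either.

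Leukocytes leave the blood in ordered steps. Selectins catch sugar groups on selectin ligands such as PSGL-1 (the product of SELPLG), so that the cell rolls along the vessel wall. Integrins, each made of an α and a β chain, then grip immunoglobulin family partners such as ICAM-1 and VCAM-1 and hold the cell, and PECAM-1 at cell junctions helps it cross. The β2 chain (ITGB2) pairs with αL (ITGAL) to form LFA-1 and with αM (ITGAM) to form Mac-1, a receptor typical of neutrophils and monocytes. The α4 chain (ITGA4) pairs with β1 (ITGB1) to form VLA-4 and with β7 (ITGB7) to form the gut homing receptor of lymphocytes.

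The positions that follow are those of RefSeq on ARS-UCD2.0. SELPLG lies at chr17:64298475-64314723, ITGAM at chr25:27344045-27382746, ITGAL at chr25:26654119-26702239, ITGB2 at chr1:144759519-144788699 and ITGA4 at chr2:15083580-15175339. ITGB1 lies at chr13:19970709-20014499, ITGB7 at chr5:26796917-26811773, PECAM1 at chr19:48525295-48619385 and ICAM1 at chr7:14813843-14824411. ITGA4 overlaps CERKL, and in Lexogen its unstranded count, the one used here, was 73.0% of its sense count, against 99.6% in Takara. PECAM1 overlaps MILR1 and a long noncoding RNA, and 6.04% of its stranded counts in Lexogen were antisense.

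Counts on genes per library ranged from 5140595 to 20699030 in Takara and from 4516761 to 58521751 in Lexogen. The deepest library was the heat stress library of animal 15 in Lexogen. Sample numbers fell into a lower run of 8 calves (run 1) and a higher run of 7 calves (run 2) with a wide gap between them, and these runs were handled as a possible batch. The levels below are CPM, each gene's counts relative to the library's total scaled by the trimmed mean of M values (TMM). Adjusted p-values are from edgeR (quasi-likelihood F-test, Benjamini-Hochberg over all genes tested), and a gene with an adjusted p under 0.05 was called differentially expressed (DEG).

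After heat stress, 4 of the 9 genes were up-regulated in Takara libraries: the selectin ligand SELPLG, both chains of Mac-1 (ITGAM and ITGB2) and the β7 chain ITGB7. With total counts in place of TMM as the scale, SELPLG and ITGAM kept their call, and ITGB2 and ITGB7 did not. None of the 9 genes was down-regulated under TMM, and ITGAL, ITGA4, ITGB1, PECAM1 and ICAM1 did not pass the test. Over all 12620 genes tested in Takara, 28.9% were DEGs, 18.4% up-regulated and 10.5% down-regulated, so 4 of 9 stands against a high background. The median log2 fold change was 0.07 over the 9 genes and -0.05 over all genes tested. In Lexogen libraries SELPLG alone of the 8 genes tested was up-regulated, where 5.55% of 11108 genes were DEGs (5.09% up-regulated), and the filter on low counts removed ICAM1. The median there was 0.19 over the 8 genes and -0.08 over all genes tested.

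**Figure D1:**
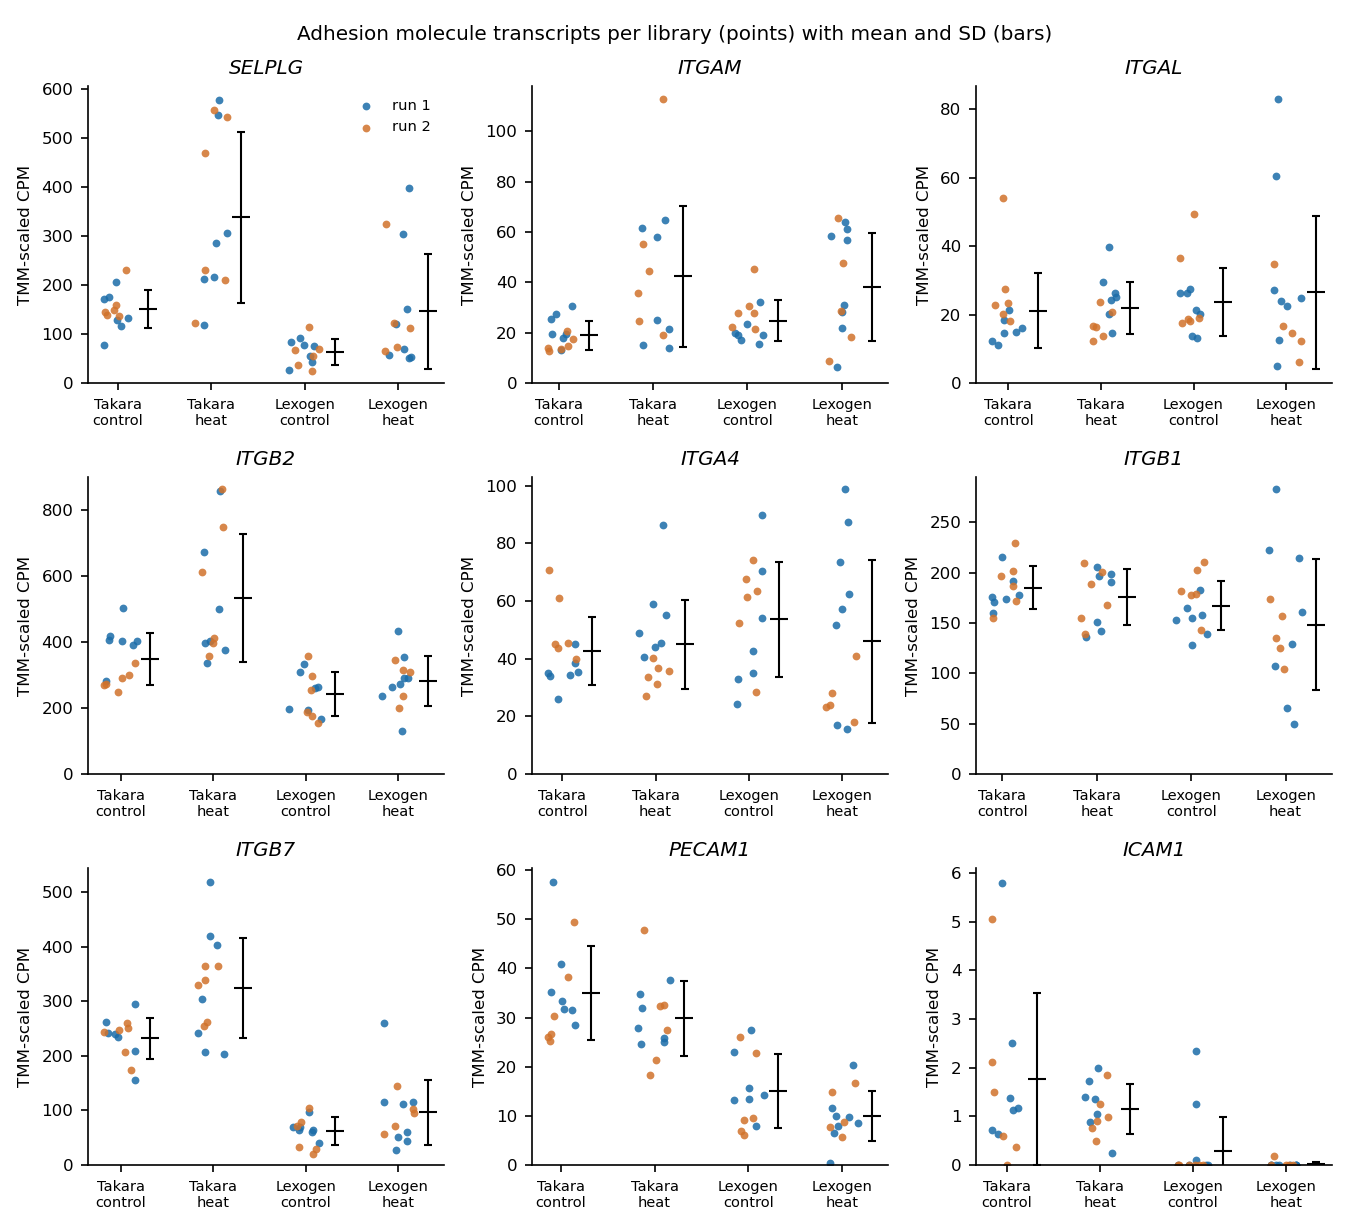
Level of each gene in every library (points, TMM-scaled CPM on a linear axis), by kit and by control or heat stress, with points coloured by run of sample numbers and bars giving the mean and SD (the lower arm is cut at 0 for ICAM1). SELPLG reached 578 CPM after heat stress in Takara against at most 231 CPM in control, while ITGB1 overlapped widely between the times.

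SELPLG encodes PSGL-1, the main ligand of P-selectin on leukocytes. In Takara control libraries its level ran from 77.9 through a median of 145 to 231 CPM, and after heat stress from 117.9 through 285 to 578 CPM. The means were 151 ± 39.1 and 338 ± 175 CPM (SD, n = 13 each). The groups overlapped, but 7 of 13 heat stress libraries lay above the highest control library. Of the 12 calves with both times, 10 had the higher level after heat stress; animals 3 and 41 did not. The log2 fold change was 1.16 (SE 0.23, 95% interval 0.68 to 1.64; edgeR adjusted p = 0.00093), a 2.23-fold difference.

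In Lexogen, SELPLG ran from 24.1 through 66.6 to 114.04 CPM in control and from 51.6 through 112 to 397 CPM after heat stress. The means were 63.1 ± 26.6 and 146 ± 117.5 CPM (SD, n = 13 each), and 8 of 12 calves rose. The log2 fold change of 1.21 (SE 0.32, 95% interval 0.56 to 1.86; edgeR adjusted p = 0.018) was close to that in Takara. Animal 36, at 24.1 CPM before and 324 CPM after heat stress, had the highest log2 change of the 12 calves (3.74). The Lexogen call rested on few calves: with the animal as a block the log2 fold change was 0.79 (edgeR adjusted p = 0.21), and it was lost without animal 15, 18 or 36, with adjusted p-values up to 0.082 over the 14 edgeR fits that each left out 1 calf. Animal 15 had no control library in Lexogen, so the fit without this calf is also the fit without the deepest library. Its log2 fold change was 0.98 (edgeR adjusted p = 0.059).

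ITGAM encodes the α chain of Mac-1, which binds complement fragments and ICAM-1. It ran from 12.9 through 18.1 to 30.5 CPM in Takara control libraries and from 13.7 through 35.7 to 112.6 CPM after heat stress. The low end of both groups was nearly equal, whereas 7 of 13 heat stress libraries exceeded every control library. The means were 18.97 ± 5.81 and 42.4 ± 27.98 CPM (SD, n = 13 each), and 9 of 12 calves rose. The log2 fold change was 1.16 (SE 0.27, 95% interval 0.60 to 1.71; edgeR adjusted p = 0.0027). In Lexogen, ITGAM averaged 24.7 ± 8.08 CPM in control and 38.1 ± 21.6 CPM after heat stress (SD, n = 13 each), with a log2 fold change of 0.63 (95% interval 0.02 to 1.23; edgeR adjusted p = 0.27). That interval lies above 0 before adjustment, and 8 of 12 calves had the higher level after heat stress.

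ITGB2, the shared β2 chain without which neither LFA-1 nor Mac-1 reaches the cell surface, ran from 249 through 338 to 505 CPM in Takara control libraries and from 337 through 413 to 865 CPM after heat stress. Here 6 control libraries lay below the lowest heat stress library, and 5 heat stress libraries lay above the highest control library. The means were 349 ± 77.7 and 534 ± 194 CPM (SD, n = 13 each), the log2 fold change was 0.61 (SE 0.16, 95% interval 0.28 to 0.95; edgeR adjusted p = 0.0067), and 10 of 12 calves rose. In Lexogen the means were 243 ± 67.9 and 283.1 ± 75.98 CPM (SD, n = 13 each), with a log2 fold change of 0.22 (95% interval -0.12 to 0.56; edgeR adjusted p = 0.56).

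ITGAL, the α chain of LFA-1, which T cells use to bind ICAM-1, had nearly equal means at both times: 21.1 ± 10.9 and 21.8 ± 7.61 CPM in Takara, and 23.7 ± 10.0 and 26.5 ± 22.3 CPM in Lexogen (SD, n = 13 each). Its log2 fold change was 0.04 in Takara (95% interval -0.39 to 0.47) and 0.16 in Lexogen (95% interval -0.54 to 0.85), with edgeR adjusted p-values of 0.90 and 0.88. The control libraries of Takara ran from 11.1 to 54.1 CPM and the heat stress libraries from 12.2 to 39.9 CPM. The even means hide opposite directions in the runs of sample numbers, which are described further on.

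ITGA4, the α4 chain, averaged 42.6 ± 11.9 CPM in control and 44.9 ± 15.4 CPM after heat stress in Takara (SD, n = 13 each; log2 fold change 0.07, 95% interval -0.25 to 0.40, edgeR adjusted p = 0.75). In Lexogen it averaged 53.6 ± 19.9 and 46.02 ± 28.3 CPM (SD, n = 13 each; log2 fold change -0.22, 95% interval -0.80 to 0.36, edgeR adjusted p = 0.78). It too differed between the runs.

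ITGB1, the β1 chain that many α chains share, had the narrowest interval of the set in Takara. It ran from 155 through 177 to 229 CPM in Takara control libraries and from 136 through 189 to 210 CPM after heat stress. Its log2 fold change was -0.08 (95% interval -0.26 to 0.11; edgeR adjusted p = 0.55), and 3 of 12 calves had the higher level after heat stress. In Lexogen the spread grew from 24.4 CPM in control to 64.8 CPM after heat stress (SD, n = 13 each), around means of 167 and 148 CPM, and the log2 fold change was -0.17 (edgeR adjusted p = 0.73).

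ITGB7, the β7 chain found on gut homing lymphocytes, ran from 155 through 242 to 295 CPM in Takara control libraries and from 204 through 330 to 519 CPM after heat stress. The means were 232 ± 37.6 and 324 ± 91.5 CPM (SD, n = 13 each), 8 heat stress libraries lay above every control library, and 11 of 12 calves rose, the highest count of calves in the set. The log2 fold change was 0.48 (SE 0.13, 95% interval 0.20 to 0.75; edgeR adjusted p = 0.0091). In Lexogen the means were 61.9 ± 25.4 and 96.4 ± 60.1 CPM (SD, n = 13 each), with a log2 fold change of 0.64 (95% interval 0.07 to 1.20; edgeR adjusted p = 0.21). Its partner chain ITGA4 was not called in either kit.

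PECAM1, an adhesion receptor of platelets, leukocytes and endothelium, ran from 25.2 through 31.8 to 57.6 CPM in Takara control libraries and from 18.3 through 27.8 to 47.9 CPM after heat stress. It was lower after heat stress in 10 of 12 calves, but its log2 fold change of -0.23 (95% interval -0.52 to 0.06; edgeR adjusted p = 0.23) did not pass the test. In Lexogen it averaged 15.1 ± 7.44 and 9.92 ± 5.11 CPM (SD, n = 13 each), was lower in 8 of 12 calves, and had a log2 fold change of -0.60 (95% interval -1.34 to 0.14; edgeR adjusted p = 0.43).

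ICAM1, the inducible partner of the β2 integrins, was near the limit of detection. It had 434 counts over the 26 Takara libraries and averaged 1.77 ± 1.77 CPM in control and 1.15 ± 0.52 CPM after heat stress (SD, n = 13 each). Its log2 fold change of -0.62 had a 95% interval of -1.48 to 0.23 (edgeR adjusted p = 0.26). Calf by calf it ran the other way, with 7 of 12 higher after heat stress and a median log2 change of 0.28. The log2 fold change was -0.25 with the animal as a block and -0.38 without animal 7. In Lexogen ICAM1 was at 0 in 22 of 26 libraries (10 control, 12 heat stress), where a count of 0 allows up to 0.0513 to 0.664 CPM, depending on the library (counting error only). Of the 53 Lexogen counts, 32 came from 1 library, and 33.96% of the stranded counts were antisense. The 7 endothelial markers, CDH5 and EMCN among them, summed to between 0.219 and 3.52 CPM in Takara libraries and to at most 4.47 CPM in Lexogen, and CDH5 and EMCN were at 0 in every Lexogen library compared.

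**Figure D2:**
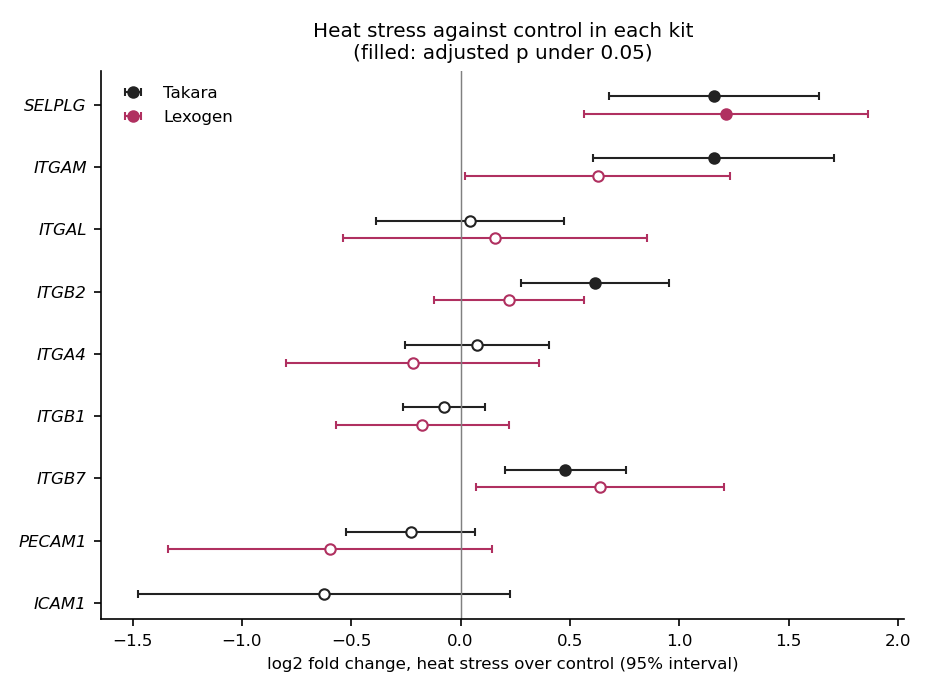
Log2 fold change of each gene, heat stress over control, with its 95% interval, for Takara (black) and Lexogen (red); filled points passed an adjusted p under 0.05. SELPLG stood at 1.16 in Takara and 1.21 in Lexogen, and ICAM1 has no Lexogen value because the filter removed it.

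How the libraries were scaled changed part of this picture. With total gene counts as the library size in place of TMM, the median log2 fold change of all Takara genes moved from -0.05 to -0.27, and the DEGs went from 2325 up-regulated and 1321 down-regulated to 1303 and 2185. SELPLG (0.81, edgeR adjusted p = 0.0026) and ITGAM (0.77, edgeR adjusted p = 0.014) were still up-regulated. ITGB2 (0.30) and ITGB7 (0.18) were no longer called, with edgeR adjusted p-values of 0.094 and 0.19. ITGB1 (-0.32, edgeR adjusted p = 0.030) and PECAM1 (-0.48, edgeR adjusted p = 0.023) were called down-regulated. Relative to the median of all genes under TMM, SELPLG and ITGAM stood at 1.21 each, ITGB2 at 0.67 and ITGB7 at 0.53. With animal 20 alone counted as a control and all other labels kept, edgeR called 0 genes in Takara (3804 at an unadjusted p under 0.05), and SELPLG was at 0.77. That setting is not the grouping of the study's table if its calves are read in ascending animal number. With animal 20 counted as heat stress, as its label has it, edgeR called 4200 genes in Takara, and 4 of the 9 adhesion molecules were up-regulated. In Lexogen that assignment gave 821 DEGs, with 1 adhesion molecule up-regulated.

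Markers of blood cell types moved with the same comparison, and their part in the results was not tested. Of the 8 neutrophil markers, 7 were up-regulated in Takara (median log2 fold change 1.99), S100A8, S100A9, S100A12, MMP9, CXCR1, CXCR2 and LTF, but not CSF3R. Their summed level ran from 4270 to 19687 CPM in control libraries (median 11480) and from 3720 to 109008 CPM after heat stress (median 42303). Of the 9 T cell markers, 6 were down-regulated (median -0.48), and their summed level went from 1223 to 2394 CPM in control (median 1550) to 753 to 1873 CPM after heat stress (median 1090). In Lexogen, 5 of the 7 neutrophil markers tested were up-regulated and 0 of 9 T cell markers were called by edgeR or DESeq2 (1 at an unadjusted edgeR p under 0.05). With the animal as a block these 5 Lexogen calls were lost, with edgeR adjusted p-values from 0.071 for S100A9 to 0.26 for MMP9. The 7 neutrophil marker calls in Takara were kept under the block. Of the other lists in Takara, 1 of 8 B cell (BLK, down-regulated), 1 of 5 NK cell (NCR1, up-regulated) and 1 of 5 monocyte markers tested (CD163, up-regulated) were called, and 0 of 2 eosinophil, 0 of 4 platelet and 0 of 2 erythroid markers tested, by edgeR as by DESeq2 (0 at an unadjusted edgeR p under 0.05).

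The wider adhesion machinery was followed in 6 lists of 66 genes, 64 of which are in the files. In Takara, 21 of the 52 genes tested were up-regulated and 2 down-regulated, with a median log2 fold change of 0.29. Over all genes tested in Takara, 18.4% were up-regulated and 10.5% down-regulated, which is the background for each list below. With total counts in place of TMM, 11 were up-regulated and 3 down-regulated (ITGAE was added), with a median of 0.027. In Lexogen, 6 of 47 were up-regulated and 0 down-regulated, with a median of 0.25, against 5.09% and 0.459% of all genes tested. With the animal as a block these 6 Lexogen calls were lost, with edgeR adjusted p-values of 0.052 for JAML, 0.054 for ICAM3, 0.061 for SKAP2, 0.135 for CD44, 0.19 for FYB1 and 0.20 for ADAM8. The lists were chosen with earlier results of these data known.

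Among the selectins and the enzymes that build selectin ligands, 6 of 10 genes tested in Takara were up-regulated and 0 down-regulated (median 0.55). They included enzymes that act on the glycans or tyrosines of PSGL-1 and like proteins: TPST2 (0.88) sulfates tyrosines, ST3GAL6 (0.65) adds sialic acid, C1GALT1 (0.67) with its chaperone C1GALT1C1 (0.53) builds core 1 glycans, and B4GALT1 (0.56) adds galactose. With total counts TPST2 and ST3GAL6 were still called, and C1GALT1, C1GALT1C1 and B4GALT1 were not (0.38, 0.25 and 0.26). The other enzymes tested, TPST1 (-0.31), ST3GAL4 (-0.05) and GCNT1 (0.54), were not called in Takara under TMM. FUT7 and FUT4, the fucosyltransferases that finish the sialyl Lewis x group, and the endothelial SELE did not pass the filter. In Lexogen 0 of 9 were called by edgeR or DESeq2 (3 at an unadjusted edgeR p under 0.05). The median there was 0.44, with TPST2 at 0.40 and C1GALT1C1 at -0.61. Of the other proteins that carry selectin ligands, CD44, the hyaluronan receptor, was up-regulated in both kits, by 2.17 in Takara and 1.51 in Lexogen on the log2 scale, whereas SPN (-0.39) and GLG1 (0.20) were not called in Takara.

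Among the other integrin chains, 1 of 10 was up-regulated in Takara (ITGAV, 0.46, a call lost with total counts and with the animal block) and 1 down-regulated (ITGA6, the laminin binding α6 chain, -0.38), with a median of -0.18. ITGAD, the α chain of another β2 integrin, stood at 0.48 and was not called (edgeR adjusted p = 0.17). Of the other immunoglobulin family and junction molecules, 4 of 10 were up-regulated and 0 down-regulated. ICAM3, a leukocyte partner of LFA-1, differed most, with a log2 fold change of 2.09 in Takara and 2.20 in Lexogen, and JAML, a junction adhesion molecule of neutrophils and monocytes, followed with 1.14 and 1.55, both up-regulated in both kits. CD58 (0.78) and CD47 (0.50) were called in Takara, CD47 not with total counts (0.21).

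Of 13 genes that switch integrins on and link them to the cytoskeleton, 7 were up-regulated and 1 down-regulated in Takara. The pair of related adaptors SKAP1 and SKAP2 went in opposite directions. SKAP2, which neutrophils use, was up-regulated by 1.65 in Takara and 1.03 in Lexogen. SKAP1, the form of T cells, was down-regulated in Takara (-0.48) and stood at -0.57 in Lexogen without passing the test. FYB1, which binds both, was up-regulated in both kits (0.91 and 0.69), and RASSF5 (0.70), APBB1IP (0.67), RAP1A (0.48), RAP1B (0.39) and RASGRP2 (0.25) of the Rap1 route were up-regulated in Takara. With total counts the calls for RAP1A (0.18), RAP1B (0.11) and RASGRP2 (-0.0001) were lost, and the animal block ended those for RAP1B and RASGRP2 (edgeR adjusted p = 0.081 and 0.056). Talin (TLN1, 0.34) and kindlin-3 (FERMT3, 0.08) were not called there. Of 6 integrin inhibitors and sheddases, ADAM8 was up-regulated in both kits (1.51 and 1.64) and ADAM10 in Takara (0.39; 0.09 and not called with total counts), while ADAM17, which cuts proteins from the cell surface, was not called (0.15).

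**Figure D3:**
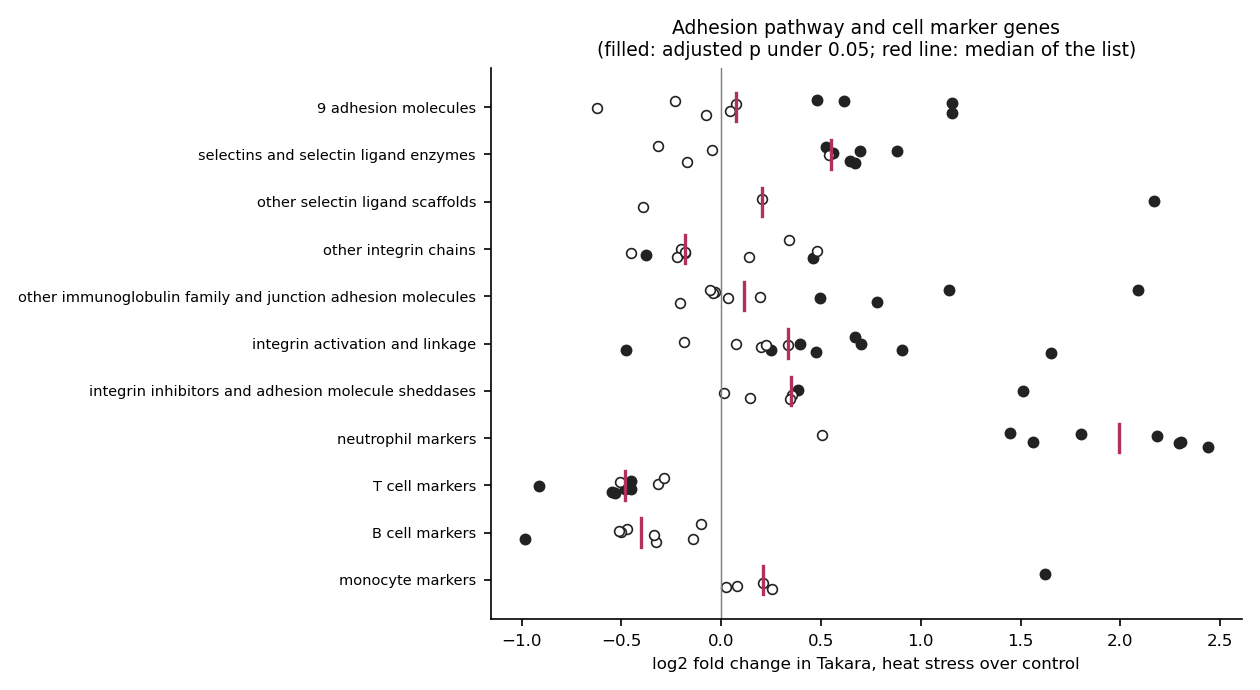
Log2 fold change in Takara libraries, heat stress over control, of each gene tested in the adhesion lists and in 4 of the marker lists; filled points passed an adjusted p under 0.05, and the red line is the median of the list. The neutrophil markers have a median of 1.99, the T cell markers of -0.48 and the 9 adhesion molecules of 0.07.

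The runs of sample numbers differed in the change of ITGAL and ITGA4. In Takara, both genes were higher after heat stress in 6 of 6 calves of run 1 and lower in 6 of 6 calves of run 2. ITGAL went from 15.6 ± 3.50 to 25.7 ± 7.87 CPM in run 1 (SD, n = 7 each) and from 27.6 ± 13.4 to 17.2 ± 4.31 CPM in run 2 (SD, n = 6 each). ITGA4 went from 35.5 ± 5.69 to 54.1 ± 15.6 CPM in run 1 (SD, n = 7 each) and from 51.0 ± 12.1 to 34.2 ± 4.61 CPM in run 2 (SD, n = 6 each). The ITGA4 groups overlapped little: in run 1 all control libraries were at or below 45.02 CPM and all heat stress libraries at or above 40.4 CPM, and in run 2 no heat stress library exceeded 40.4 CPM and no control library fell below 39.9 CPM.

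The difference itself was tested as the interaction of run and time. The change in run 2 was lower than in run 1 by a log2 fold change of -1.39 for ITGAL (SE 0.34, 95% interval -2.08 to -0.69; edgeR adjusted p = 0.029) and of -1.17 for ITGA4 (SE 0.24, 95% interval -1.67 to -0.67; edgeR adjusted p = 0.010). Of 13767 genes tested, 2.27% passed this test (1.76% with a lower change in run 2), against 2 of the 9 adhesion molecules. Within run 1, ITGAL (0.70, edgeR adjusted p = 0.025) and ITGA4 (0.59, edgeR adjusted p = 0.027) were up-regulated. Within run 2 neither was called (-0.65 and -0.54, edgeR adjusted p-values 0.13 and 0.065). Over all genes tested in Takara, 2630 of 12791 were DEGs within run 1 and 931 of 12661 within run 2.

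For ITGA4 the call held without any 1 calf (edgeR adjusted p from 0.0086 to 0.034). For ITGAL it was lost without animal 12, 16, 19, 32 or 41 (edgeR adjusted p up to 0.074, log2 difference between -1.48 and -1.18). With total gene counts as the library size both missed the threshold (-1.17 and -1.04, edgeR adjusted p = 0.11 each). In plain CPM without TMM, ITGAL was higher after heat stress in 5 of 6 calves of run 1 and ITGA4 in 3 of 6, and both in 0 of 6 of run 2. In Lexogen, both genes were higher in 5 of 7 calves of run 1 and lower in 5 of 5 of run 2, and the differences of -1.21 (95% interval -2.56 to 0.15) and -1.27 (95% interval -2.34 to -0.19) did not pass the test (edgeR adjusted p = 0.71 and 0.51). There 0.0222% of 13484 genes passed (0.0148% with a higher and 0.00742% with a lower change in run 2).

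Marker lists were set beside this difference, and their part in it was not tested. The summed T cell markers had a Takara median that went from 1550 to 1090 CPM in run 1 and from 1651 to 1178 CPM in run 2, and 0 of the 9 markers passed the run test by edgeR (0 at an unadjusted p under 0.05). The summed neutrophil markers went from a median of 12875 to 42303 CPM in run 1 and from 8388 to 44462 CPM in run 2, also with 0 of 8 past the run test by edgeR (1 at an unadjusted p under 0.05). The summed platelet markers went from a median of 1497 to 1862 CPM in run 1 and from 3004 to 2366 CPM in run 2, the directions of ITGAL and ITGA4. Of the 6 platelet markers tested between the runs, 0 passed by edgeR and 3 had an unadjusted p under 0.05, with differences of -0.95 for PF4, -1.16 for TREML1 and -1.56 for TUBB1. The summed monocyte markers went the other way, from 312 to 233 CPM in run 1 and from 143 to 316.04 CPM in run 2, with 0 of 5 past the run test by edgeR and 4 at an unadjusted p under 0.05. The summed NK cell markers had the directions of the monocyte markers, from 224 to 185 CPM in run 1 and from 183 to 255 CPM in run 2. Of these, 0 of 5 passed the run test by edgeR (0 at an unadjusted p under 0.05). What else set the runs apart is not given in the sources used here.

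**Figure D4:**
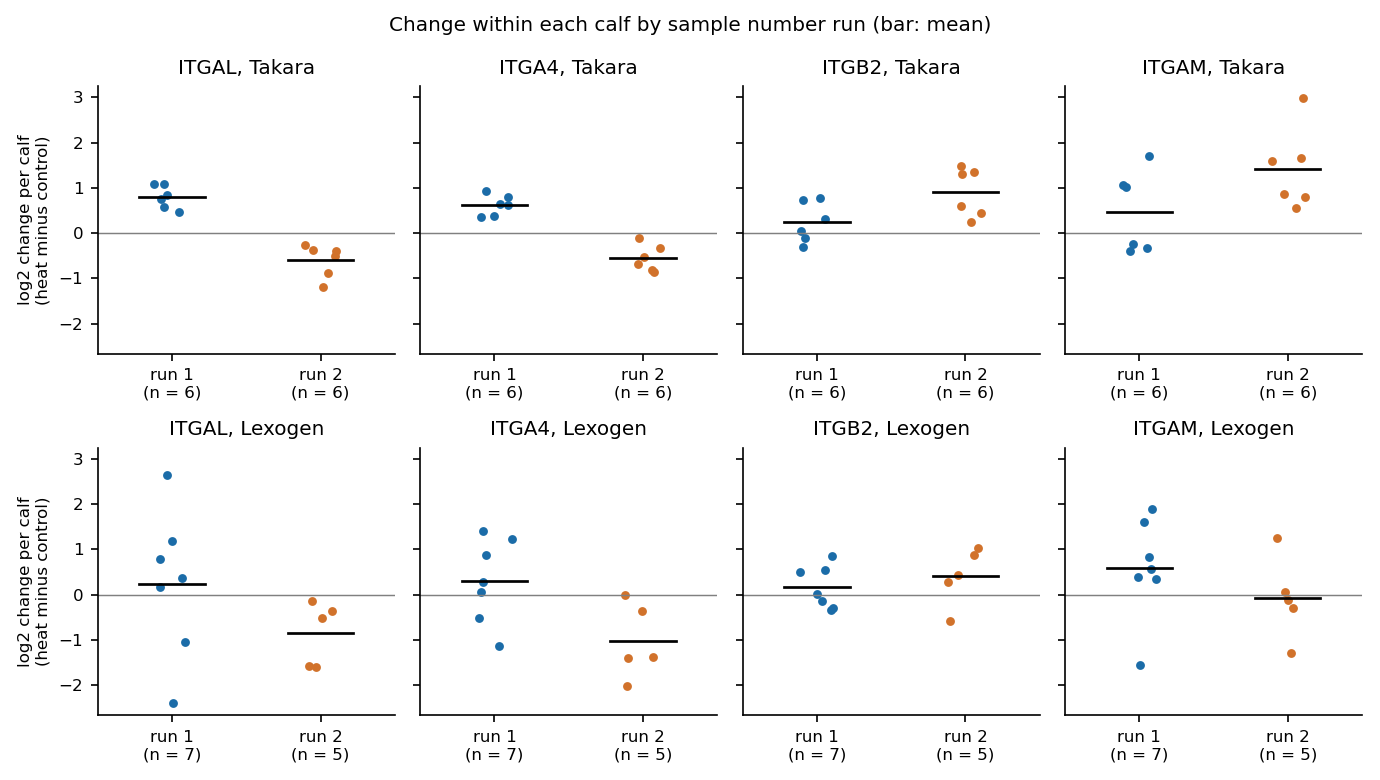
Log2 change within each calf, heat stress minus control (points; bars give the mean), for 4 integrin chains in Takara (upper row) and Lexogen (lower row), by run of sample numbers. In Takara, all 6 calves of run 1 lie above 0 and all 6 of run 2 below 0 for ITGAL and ITGA4, while ITGAM and ITGB2 lie above 0 in all 6 calves of run 2.

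ITGAM and ITGB2 leaned the other way. In Takara both were higher after heat stress in 6 of 6 calves of run 2 and in 3 and 4 of 6 calves of run 1. Within run 2 the log2 fold changes were 1.69 for ITGAM and 1.02 for ITGB2 (edgeR adjusted p = 0.036 each). Within run 1 they were 0.72 and 0.31 (edgeR adjusted p = 0.14 and 0.27). The differences between the runs, 0.92 for ITGAM (95% interval -0.16 to 2.0) and 0.66 for ITGB2 (95% interval 0.03 to 1.29), did not pass the test (edgeR adjusted p = 0.41 and 0.29). SELPLG was up-regulated within each run, by 1.13 (edgeR adjusted p = 0.020) and 1.19 (edgeR adjusted p = 0.0498), and ITGB7 stood at 0.46 and 0.50, called in neither run alone. Fewer of all genes tested were DEGs within run 2 (931 of 12661) than within run 1 (2630 of 12791).

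The kits were compared within the 25 RNA samples sequenced with both. ITGB7 was higher in Takara under TMM by a log2 fold change of 1.40 (95% interval 1.13 to 1.66), PECAM1 by 1.00 (95% interval 0.58 to 1.41) and SELPLG by 0.78 (95% interval 0.52 to 1.03). ITGAM and ITGAL (-0.68 each), ITGA4 (-0.54) and ITGB1 (-0.21) were lower in Takara under TMM, and ITGB2 (0.14) was not called. Such differences were the rule: 72.3% of 12402 genes passed this edgeR test (40.5% higher and 31.8% lower in Takara). The median of all genes was 0.22 under TMM, 0.55 under the size factors of DESeq2 and 0.71 under total counts. Relative to that median, ITGB7 stood at 1.18 and ITGAM at -0.90 under TMM. ITGB1 turned positive under the other scalings (0.12 and 0.28), and the calls for ITGAL and ITGA4 were lost there. In plain CPM, ITGB7 was higher in Takara in 25 of 25 RNA samples, at a median ratio of 3.72, ITGB2 in 25 and SELPLG and PECAM1 in 24. ITGB1 was also higher in Takara in plain CPM, in 22 of 25 RNA samples at a median ratio of 1.16, while ITGAM was higher in 8, ITGAL in 10 and ITGA4 in 11.

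The heat stress change itself was not shown to differ between the kits for any of the 9 genes. The interaction of kit and time had 0 DEGs (0%) among 13354 genes by edgeR, with 526 at an unadjusted p under 0.05. The intervals were wide: the Takara minus Lexogen difference was -0.28 for SELPLG (95% interval -0.79 to 0.22), 0.27 for ITGAM (95% interval -0.38 to 0.91), 0.12 for ITGB2 (95% interval -0.16 to 0.40) and -0.26 for ITGB7 (95% interval -0.79 to 0.27).

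Around the mean of each time, the genes of the set varied together in part over the 26 Takara libraries, as a description over libraries that share depth and cell makeup. ITGB2 and ITGAM had a Pearson r of 0.83, SELPLG with ITGB2 0.77 and SELPLG with ITGAM 0.75. ITGAL and ITGA4 had an r of 0.65, and ITGA4 ran against ITGB2 at -0.31. Of 12619 other genes, the one most like ITGB2 was NCF4 (0.92), a subunit of the phagocyte NADPH oxidase, the one most like ITGAM was CD244 (0.89), the one most like SELPLG was SARS1 (0.92) and the one most like ITGB7 was IP6K1 (0.90), with CORO1A, a leukocyte actin binding protein, next (0.89). The closest to ITGAL was RERE (0.77), to ITGA4 RPAP2 (0.76), to ICAM1 MR1 (0.81), to PECAM1 SH2D1B (0.69) and to ITGB1 COL4A4 (0.69).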

How the data were processed

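Whole blood RNA of 15 calves was sequenced in 54 libraries, 27 per kit. Per the study's methods, the authors used Trimmomatic 0.39 on the forward reads and STAR 2.7.10b with the ARS-UCD2.0 genome, checked quality with FastQC 0.11.9 and MultiQC 1.14 (versions from the submitters' processing notes), and deposited raw counts of uniquely mapped reads per gene in unstranded, sense and antisense columns. The column the authors analysed is not named, and the unstranded counts were used here. The 4 totals above the genes (unmapped, multimapped, featureless and ambiguous reads), 32.2% to 57.9% of a library's reads, were kept out of library sizes. The reads carry no molecular identifiers, so floors cover counting error only.

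Groups came from the labels. Control and heat stress libraries of each kit were compared with edgeR 4.0.16 in R 4.3.3 (filterByExpr with its defaults, TMM, glmQLFit and glmQLFTest, time alone), with Benjamini-Hochberg adjustment over all genes tested. SE is the absolute log2 fold change over the root of F. Interactions with kit (RNA sample as block) and run (run as covariate) and the kit difference (RNA sample as block) were fitted alike. The members and lists were chosen with earlier results of these data known. All 9 genes are named. Of the adhesion lists, the rule named the 5 largest positive and up to 5 largest negative log2 fold changes among DEGs in Takara (CD44, ICAM3, SKAP2, ADAM8 and JAML; SKAP1 and ITGA6), and the other list genes were picked after their values were seen. Likeness is Pearson r of TMM log2 CPM centred on the time means.

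Animal numbers pair libraries of 1 calf. Deviations of the 2 libraries of a calf correlated above 0.1 in 11 of 12 calves in Takara (median 0.232) and in 2 of 12 in Lexogen (median 0.021). The animal block was an alternative; under it calves with 1 library add nothing to the time effect. Other alternatives were DESeq2 1.42.0, DESeq2's size factors, total counts, no filter, sense counts, single runs, animal 20 in either group, leaving out each calf, and leaving out the deepest library. On simulated counts a log2 fold change of 1 was recovered in 64.6% of genes in Takara (12460 genes) and 16.3% in Lexogen (10637 genes), and a change of 2 in 94.9% and 77.7%. The spread of the simulated counts was estimated over both times together. It therefore holds differences between the times as well and need not equal the spread within a time. Sequence variants were not analysed here.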

Additional observations from a re-analysis of the deposited data

Results flagged for a closer look

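The change from control to heat stress differed between the runs of sample numbers for 2 of the 9 adhesion molecules in Takara, by the test of the difference itself. For ITGAL the log2 fold change in run 2 minus that in run 1 was -1.39 (edgeR adjusted p = 0.029). For ITGA4 it was -1.17 (edgeR adjusted p = 0.010). No cause was tested.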

How the results depend on the processing

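With the animal as replicate block, SELPLG (0.94), ITGAM (0.94), ITGB2 (0.57) and ITGB7 (0.51) were still called in Takara, as in each of the 14 fits without 1 calf. In Lexogen the block gave 66 DEGs and 0 adhesion molecules; it ended the SELPLG call, turned ITGAL to -0.23 and ended no other call of the set in either kit. In the run test for Takara it gave 171 DEGs with both calls kept. Takara gave 931 DEGs within run 2, with 3 adhesion molecules up-regulated. With animal 20 as a control it gave 0 DEGs and 0 adhesion molecules. Total counts gave 2 up-regulated and 2 down-regulated adhesion molecules in Takara, and 158 DEGs and 0 adhesion molecules in its run test. Without the filter that run test gave 146 DEGs and 1 adhesion molecule. Lexogen gave 3273 DEGs without a filter, 1006 with DESeq2, 402 within run 1, 0 within run 2 (1275 at an unadjusted p under 0.05) and 2 with animal 20 as a control, the last 3 with 0 adhesion molecules, as without the library of animal 15 after heat stress. Its run test gave 0 DEGs without a filter (2342 at an unadjusted p under 0.05). In the kit comparison, the 3 higher and 4 lower adhesion molecules became 4 higher and 1 lower with DESeq2's size factors, 5 higher and 0 lower with total counts, and 5 higher and 3 lower without a filter; ITGB1 turned to 0.12 and 0.28 under the first 2. Leaving out 1 calf gave 348 to 747 DEGs and 0 to 1 adhesion molecules in Lexogen, and 0.847% to 2.58% of genes and 1 to 2 adhesion molecules called in the Takara run test.

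The near 0 changes of ITGAL and ITGA4 changed sign. In Takara ITGAL was -0.18 with total counts, -0.65 within run 2, -0.024 with animal 20 as heat stress, -0.0042 without the library of animal 15 after heat stress, and -0.074 to 0.23 without 1 calf. ITGA4 was -0.13 with total counts, -0.54 within run 2, and -0.034 to 0.17 without 1 calf. In Lexogen ITGAL was -0.63 within run 2 and -0.18 to 0.29 without 1 calf, and ITGA4 was 0.21 within run 1. In Lexogen, without 1 calf, the change of the ITGAM to ITGB2 log2 ratio was -0.080 to 0.16 and that of ITGA4 to ITGB1 -0.34 to 0.11. For each of these the cause was not tested, apart from the fewer samples or genes that a setting uses. ICAM1 had at most 57 counts in a Takara library.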

Other observations

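Ratios of integrin chains within a library do not depend on how libraries are scaled. Their changes in 12 calves per kit were examined after the run difference had been seen, as 8 comparisons (4 ratios, 2 kits). Over all calves none passed: the smallest p was that of ITGAM to ITGB2 in Takara (mean log2 change 0.37 ± 0.54, SD, 12 calves; higher in 9 of 12; exact two-sided sign permutation p = 0.021, adjusted p = 0.17). Split by run, the ratios are given as values with no test, since they hold the genes whose run difference prompted them. The change of ITGAL to ITGB2 in Takara was 0.57 ± 0.50 in run 1 and -1.51 ± 0.46 in run 2 (SD, 6 calves each; higher in 5 and 0 of 6). That of ITGA4 to ITGB1 was 0.74 ± 0.38 and -0.45 ± 0.34 (higher in 6 and 1 of 6), and that of ITGA4 to ITGB7 was 0.06 ± 0.60 and -1.02 ± 0.36 (higher in 3 and 0 of 6). In Lexogen ITGA4 to ITGB7 was higher after heat stress in 4 of 7 calves of run 1 and 0 of 5 of run 2.

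The libraries of animal 20, which entered no comparison of the times, held SELPLG at 508 CPM in Takara and 450 CPM in Lexogen, both without TMM scaling. ITGAM was at 59.9 and 87.5 CPM, ITGB2 at 536 and 394 CPM, and ITGB7 at 339 and 217 CPM. ITGAL was at 6.57 CPM in Takara and 21.5 CPM in Lexogen, and ITGA4 at 15.7 and 19.8 CPM.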
